A study of Mus musculus with 47 samples.

Results

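This report describes 5 mouse CXC chemokine genes, Cxcl1, Cxcl2, Cxcl3, Cxcl16 and Pf4, in 12 RNA-seq libraries of macrophages and macrophage-like cells. They were chosen by name as the CXC chemokines that recruit neutrophils, with Cxcl16 and Pf4 added as further members of the family. All 5 are listed in every table, among 51912 genes in the tables of bone marrow-derived macrophages and 23772 in the fullest table of the cell line. CXC chemokines are small secreted proteins that guide leukocytes through G protein-coupled receptors. CXCL1, CXCL2 and CXCL3 bind CXCR2 on neutrophils, and macrophages release them after sensing bacteria or tissue damage. CXCL16 is made as a membrane protein, binds CXCR6 and scavenges oxidised lipoprotein, and the proteases ADAM10 and ADAM17 can shed it from the cell surface. PF4, also named CXCL4, is best known from the alpha granules of platelets and is also made by macrophages.

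The study asked how ZMYND8, a chromatin reader protein, acts on inflammatory genes in macrophages. Bone marrow-derived macrophages (BMDMs), grown from C57BL/6 mouse marrow in 20 ng/ml M-CSF for 5 days, came from wild-type (WT) mice and from Zmynd8 conditional knockout (cKO) mice. The WT mice were floxed animals without Cre, and the cKO mice had floxed Zmynd8 exons cut by Cre expressed from the Lyz2 locus, which is active in myeloid cells. For each genotype there was 1 untreated library (M0), 1 library after lipopolysaccharide, the bacterial cell wall product LPS (M1, 100 ng/ml, 6 h), and 1 after interleukin-4 (M2, IL-4, 20 ng/ml, 6 h). Each was made from 3 mixed biological replicates. The other 6 libraries carry labels of Raw264.7, a mouse macrophage-like cell line edited here with lentiviral guide RNA vectors. For Zmynd8 they are the knockout (Zmynd8 KO), the knockout given back WT Zmynd8, and the knockout given the mutant D/E-A, in which acidic residues were replaced by alanine. Their RNA labels give no treatment, while the study's text describes the WT Zmynd8 and D/E-A libraries as LPS-treated. For p65, the NF-kB subunit encoded by Rela, they are the knockout (p65 KO), the knockout given WT p65 and the knockout given the K122R mutant, all LPS-treated. In the header of its column, the WT p65 library is named only as WT with LPS, so it is uncertain whether it is the knockout given WT p65 or the parental line, and every K122R and p65 KO ratio below rests on it.

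Every condition is thus 1 library, and no comparison of 2 libraries below has a replicate check. The 95% limits given with each value are exact binomial limits and cover counting error only, not the spread between mice or cultures. An exact binomial test on the reads of 2 libraries likewise compares those libraries, not the conditions. For BMDMs, genotype and treatment were also fitted together over the 6 libraries, where each genotype has 3 libraries and each treatment 2. The BMDM libraries held between 22597425 and 28386646 counts and the libraries labelled Raw264.7 between 15127110 and 21042628 reads.

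The labels were checked first on the targeted genes. Zmynd8 was not called lower in any BMDM library labelled cKO. Its counts were 2284 in WT and 1842 in the library labelled cKO when untreated. With LPS they were 1967 and 2033, and with IL-4 3636 and 3944. A gene-level count also takes reads from exons outside the floxed part, so it checks the deletion poorly. Lyz2, the gene that carries Cre in these mice, was lower in each library labelled cKO, at 0.658, 0.419 and 0.587 of the matching WT read share. Xist had 19386 counts in untreated WT and 7310 in the library labelled cKO. After LPS it had 6133 and 10046, and after IL-4 31447 and 27605. The sex of the pooled mice is not given per library, and its part in the differences between BMDM libraries was not tested. In the Raw264.7 tables Zmynd8 was listed at 116 in the library labelled Zmynd8 KO against 506 in that labelled WT Zmynd8. The former is 1 of 2 values of that library that are not a whole number of reads, so this check is uncertain. Rela had 765 reads in the p65 KO library, 1601 with WT p65 and 5850 with K122R, so the libraries labelled WT p65 and K122R did not carry equal p65 transcript.

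The 3 libraries labelled as Zmynd8 lines stand apart from those of the p65 lines and carry transcripts of other blood cell types. It is therefore uncertain whether they are Raw264.7 cells, and they are named here only by their labels. Reads of 12 neutrophil and granulocyte precursor genes summed to 10982 CPM, the count divided by the library total on the usual scale, in the library labelled WT Zmynd8, to 7587 in Zmynd8 KO and to 5061 in D/E-A. In the p65 lines they summed to between 5.95 and 27.8, and S100a9, Ngp, Elane and Mpo have no row in their tables. Xist had between 7109 and 8467 reads in the Zmynd8-line libraries and between 0 and 3 in the p65 lines. Markers of B cells summed to between 80.4 and 109 CPM in the former, with at most 0.427 CPM in the BMDM and p65 libraries. The ribosomal RNA-related gene Rn18s-rs5 took 13.7% of the reads in the library labelled WT Zmynd8, 11.1% in Zmynd8 KO and 6.50% in D/E-A, against at most 0.509% in the p65 lines, and its part in the differences between these libraries was not tested. Because each sample is bulk RNA, fewer cells of a type and less RNA per cell cannot be told apart.

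Cxcl1, Cxcl2, Cxcl3 and Pf4 lie together on chromosome 5. In the mm10 build Pf4 spans chr5:90772435-90773383, Cxcl3 chr5:90786101-90788093, Cxcl1 chr5:90891245-90893121 and Cxcl2 chr5:90903899-90905938, all on the plus strand. With Cxcl5 and Ppbp they fall within 147 kb. Cxcl16 is elsewhere, at chr11:70454232-70459984 on the minus strand. The stretch in front of the first 3 genes is shown because their transcripts moved together in several comparisons below. The longest run of bases present in all 3 windows of the 250 bases upstream of the start site was GGGAATTTCCC, a sequence of the kind that NF-kB dimers bind. It is the first run in capitals below, and the second marks ATAAAAGG, a shared TATA-like run. The sequences come from RefSeq (GRCm38.p6), are written 5′ to 3′ on the plus strand and end at the base before the annotated start.
Cxcl1, chr5:90891164-90891244: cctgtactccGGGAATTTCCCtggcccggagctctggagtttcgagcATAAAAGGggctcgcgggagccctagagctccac
Cxcl2, chr5:90903792-90903898: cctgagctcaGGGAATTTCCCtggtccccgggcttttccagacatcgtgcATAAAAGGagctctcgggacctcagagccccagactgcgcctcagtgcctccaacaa
Cxcl3, chr5:90786018-90786100: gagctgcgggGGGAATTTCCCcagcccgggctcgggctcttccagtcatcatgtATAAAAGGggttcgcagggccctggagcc

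GGGAATTTCCC began 71 bases before the start of Cxcl1, 97 before Cxcl2 and 73 before Cxcl3. On either strand it was present in 14 of 32851 promoter windows of the same table, 0.0426% of them. These include the windows of Cxcl1, Cxcl2 and Cxcl3, for which the run was chosen, so the share is no test. The run was not found in the windows of Pf4 or Ppbp, which says only that these letters are not there. ATAAAAGG began 34, 57 and 29 bases before the starts of Cxcl1, Cxcl2 and Cxcl3 and was in 1.54% of windows on either strand. The window of Ppbp held it too, on the opposite strand and 87 bases before the start. Around the longer run, 23 of 30 bases were identical between Cxcl1 and Cxcl2, 19 between Cxcl1 and Cxcl3, and 17 between Cxcl2 and Cxcl3. A match of letters is a description, not a binding site. Of the 5 genes, 4 matched an entry of the promoter table, all but Cxcl16.

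In resting WT BMDMs the 3 neutrophil attractants were scarce, while Cxcl16 and Pf4 were abundant. Cxcl1 had 42 counts, Cxcl2 117 and Cxcl3 16, against 3619 for Cxcl16 and 3044 for Pf4. On the TPM scale, which also corrects for transcript length and so allows levels of different genes to be compared, Pf4 led with 501, followed by Cxcl16 with 109, Cxcl2 with 7.09, Cxcl1 with 3.11 and Cxcl3 with 1.13. Treatment changed the order in the same way in both genotypes. After LPS Cxcl16 stood above Pf4 in TPM, at 540 against 113 in WT and 668 against 228 in the library labelled cKO. After IL-4 Cxcl3 passed Cxcl2, at 39.4 against 34.5 TPM in WT and 195 against 113 in the library labelled cKO, and Cxcl1 came last in both.

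**Figure D1:**
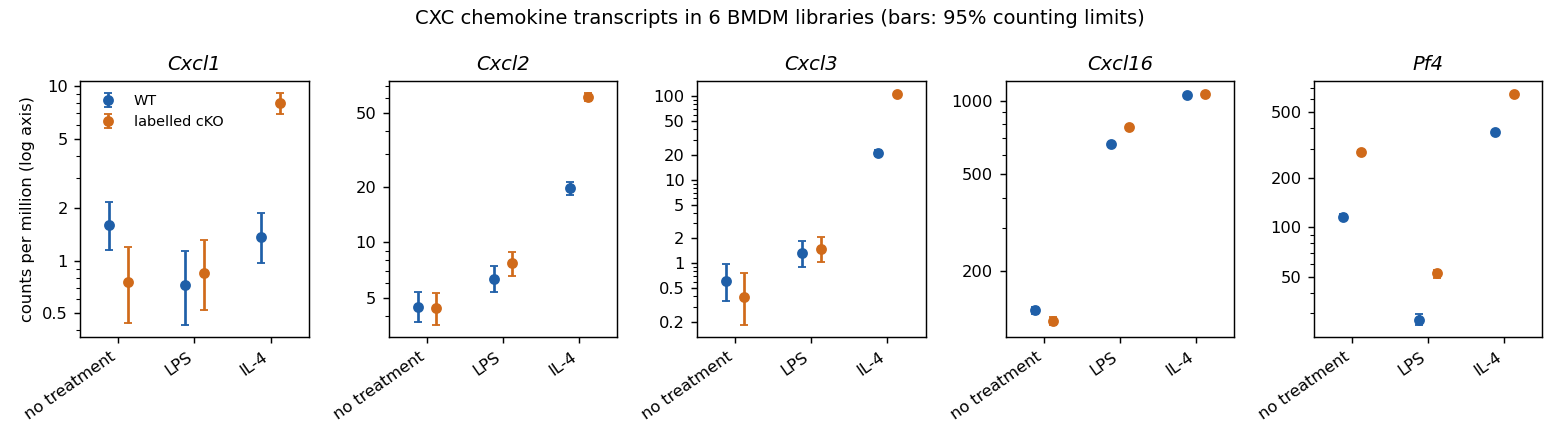
Level of each chemokine transcript in the 6 BMDM libraries, in CPM on a log axis, with WT in blue and the libraries labelled cKO in orange. Points are single libraries and bars are 95% limits of counting error. Cxcl1, Cxcl2 and Cxcl3 stand highest in the IL-4 library labelled cKO, at 8.04, 61.4 and 106 CPM, while Cxcl16 is alike in both IL-4 libraries.

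The first question was whether the genotypes differed before any treatment. A gene was called between 2 BMDM libraries when it had a mean of at least 10 counts, differed by at least 1.2-fold in CPM after adding 1 CPM, and had an adjusted p under 0.05 in the exact binomial test with Benjamini-Hochberg adjustment. Adding 1 CPM shrinks the log2 difference of low genes, so the plain ratio of read shares is given as well. Of 12463 genes tested, 21.9% were called higher and 26.1% lower in the untreated library labelled cKO. Of the 5 chemokines, 1 was called higher and 1 lower, which is no larger a share than over all genes. Pf4 had 3044 counts in WT and 6486 in the library labelled cKO, or 116 and 287 CPM, a ratio of 2.47 (2.37 to 2.58) and a log2 difference of 1.30. The platelet and megakaryocyte genes summed to 17.3 and 14.7 CPM in the same libraries. Cxcl1 had 42 counts in WT and 17 in the library labelled cKO, a ratio of 0.469 (0.251 to 0.843) with an adjusted p of 0.0153 in the exact binomial test. Its 2 levels rest on few reads, and their separate limits overlap. Neither call held in an edgeR exact test with an assumed variation of 0.2, and that of Cxcl1 was also lost with a 2-fold limit, while the fold rule on TPM called 4 of the 5.

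Cxcl2 and Cxcl3 did not differ beyond counting error in untreated cells. Cxcl2 had 117 and 99 counts, a ratio of 0.981 (0.743 to 1.29), and Cxcl3 had 16 and 9, a ratio of 0.652 (0.254 to 1.57). Cxcl16 had 3619 and 2815 counts, a ratio of 0.902 (0.859 to 0.948), which is under the 1.2-fold limit. Other ligands of the family differed in both directions. Of 10 other CXC ligands, 5 could be tested, of which 2 were called higher and 3 lower. Cxcl10, an interferon-induced ligand of CXCR3, had 667 and 196 counts, while Cxcl14 had 218 and 347, and Ppbp, a platelet chemokine, 113 and 165.

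LPS was checked on 7 LPS response genes, and all 7 were called higher after it in both genotypes. Nos2, the inducible nitric oxide synthase, went from 229 to 186078 counts in WT. Against this the neutrophil attractants were low at 6 h. Cxcl1 had 18 counts in the WT LPS library and 20 in the library labelled cKO, Cxcl2 had 158 and 180, and Cxcl3 had 33 and 35. In WT, 20.7% of 12813 genes were called higher and 61.3% lower after LPS, and in the libraries labelled cKO 23.9% of 12666 were called higher and 59.0% lower. Over all genes the log2 difference had a median of -0.58 in WT and -0.55 in the libraries labelled cKO. Scaling by the median ratio moves these medians to 0.00 and -0.01, so each LPS fold is read against that shift.

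Relative to the untreated library, Cxcl16 had the largest rise among the 5 with LPS. It went from 138 to 661 CPM in WT, 4.78-fold (4.62 to 4.96), and from 125 to 777 CPM in the libraries labelled cKO, 6.24-fold (6.00 to 6.49). Cxcl2 was called higher in both genotypes, 1.42-fold (1.11 to 1.82) in WT and 1.75-fold (1.36 to 2.26) in the libraries labelled cKO. Cxcl3 was called higher too, from 16 to 33 counts in WT and from 9 to 35 in the libraries labelled cKO, with limits of 1.16 to 4.22 and 1.77 to 8.87 for the ratio. With a 2-fold limit the calls of Cxcl2 and Cxcl3 were lost in both genotypes. In WT both were also lost in the edgeR exact test with an assumed variation of 0.2. Cxcl1 went from 42 to 18 counts in WT, a ratio of 0.451 (0.244 to 0.801), and from 17 to 20 in the libraries labelled cKO, a ratio of 1.13 (0.565 to 2.31). The WT call for Cxcl1 was lost when libraries were scaled by the median ratio of their genes.

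Pf4 moved the other way. It went from 3044 to 682 counts in WT, 0.236 of its untreated read share (0.217 to 0.256), and from 6486 to 1224 in the libraries labelled cKO, 0.182 (0.171 to 0.193). Its log2 differences of -2.04 and -2.44 are below the median of all genes. Platelet and megakaryocyte genes also summed to less after LPS, 0.376 of the untreated level in WT and 0.353 in the libraries labelled cKO, but single genes went in both directions. Treml1, which holds most of their reads, went from 423 to 57 counts in WT and was called lower in both genotypes. Clec1b was called higher in both, from 15 to 37 counts in WT, and Itga2b in WT, from 4 to 32. Summed over all 10 genes they held at most 26.4 CPM in BMDMs, with Gp9 or Gp1bb at 0 in several libraries, and their part in Pf4 was not tested. In total, 3 of the 5 were called higher and 2 lower in WT, and 3 higher and 1 lower in the libraries labelled cKO. Of the other CXC ligands, 3 of 5 tested were called higher and 2 lower in both genotypes. Those called higher were the CXCR3 ligands Cxcl9, Cxcl10 and Cxcl11, with Cxcl9 at 109 and 59080 counts and Cxcl10 at 667 and 71192 in WT. Neutrophil genes moved in both directions, with Csf3r at 934 counts untreated and 12288 after LPS in WT, Mmp8 at 2612 and 232, and Elane at 0 in both. The ligands called lower were Ppbp and Cxcl14, the latter from 218 to 9 counts in WT. Of 5 receptors and sheddases tested, 1 was called higher and 2 lower in WT, and 1 higher and 3 lower in the libraries labelled cKO. Adam10 went from 5155 to 1401 counts in WT and Cxcr4 from 1008 to 129, and both were called lower in both genotypes. Cxcr6, the receptor of CXCL16, was the gene called higher in WT, from 3 to 21 counts. Adam17 was the gene called higher in the libraries labelled cKO, from 3676 to 7274 counts.

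**Figure D2:**
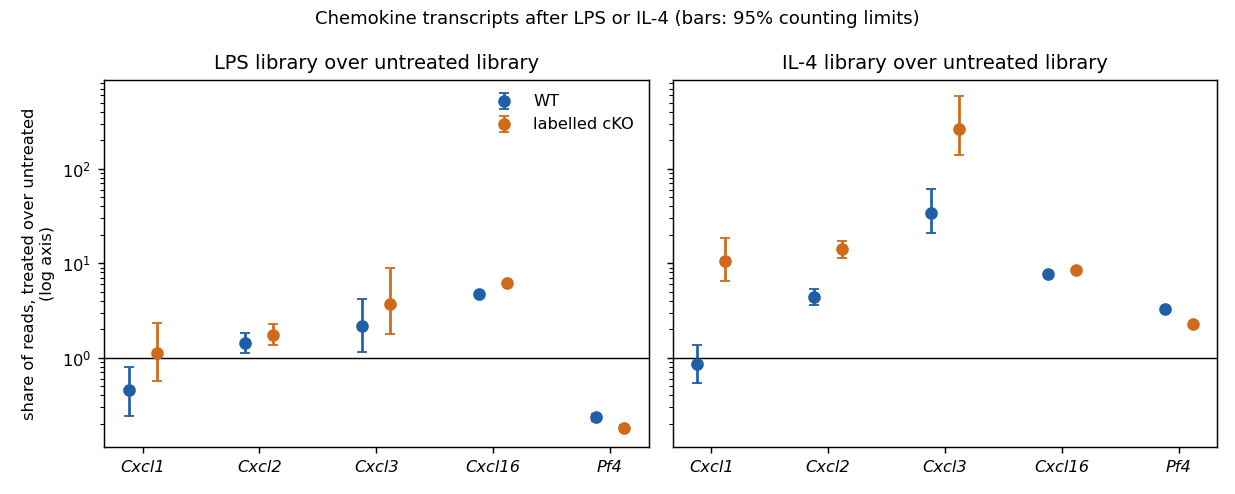
Ratio of each transcript's read share after treatment to that without treatment, on a log axis, for LPS and IL-4 in WT (blue) and in the libraries labelled cKO (orange), with 95% limits of counting error. Cxcl3 after IL-4 stands at 34.5 in WT and 266 in the libraries labelled cKO, and Pf4 after LPS lies below 1 in both.

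The libraries of the 2 genotypes were next compared within LPS. Of 12387 genes, 17.3% were called higher and 8.90% lower in the library labelled cKO. Pf4 was the only one of the 5 chemokines called, with 682 and 1224 counts, 27.4 and 52.2 CPM, a ratio of 1.91 (1.74 to 2.10) and a log2 difference of 0.91. This call was lost with a 2-fold limit and in the edgeR exact test with an assumed variation of 0.2, which left 0 of the 5 called, while the fold rule on TPM called 3. Cxcl16 had 16453 and 18211 counts, a ratio of 1.18 (1.15 to 1.2). This is beyond counting error and under the 1.2-fold limit. Cxcl1, Cxcl2 and Cxcl3 had ratios of 1.18 (0.593 to 2.37), 1.21 (0.972 to 1.51) and 1.13 (0.680 to 1.87). None of these 3 passed the exact binomial test, and their limits leave room for differences in either direction. Over the same pair of libraries 6 of 7 LPS response genes were called higher in the library labelled cKO. The CXCR3 ligands were not called, with Cxcl10 at 71192 and 71983 counts and Cxcl9 at 59080 and 54981.

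For the neutrophil attractants the libraries labelled WT and cKO differed most after IL-4, where 4 of the 5 chemokines were called higher in the library labelled cKO. Over 13245 genes tested, 14.0% were called higher and 10.6% lower. Cxcl3 had 597 counts in WT and 2773 in the library labelled cKO, or 21 and 106 CPM, a ratio of 5.05 (4.62 to 5.52). Cxcl1 had 39 and 210 counts, a ratio of 5.85 (4.14 to 8.46). Cxcl2 had 555 and 1605 counts, 19.6 and 61.4 CPM, a ratio of 3.14 (2.85 to 3.47). Their log2 differences were 2.28, 1.93 and 1.60, against a median of 0.01 over all genes. Pf4 had 10735 and 16969 counts, a ratio of 1.72 (1.68 to 1.76), a call that was lost with a 2-fold limit and in the edgeR exact test with an assumed variation of 0.2. Cxcl16 was level, with 29990 and 27828 counts, or 1056 and 1065 CPM, and a ratio of 1.01 (0.992 to 1.02).

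Other inflammatory genes differed in the same pair of libraries. All 7 LPS response genes were called higher in the IL-4 library labelled cKO, among them Tnf with 1099 and 3361 counts and Il1b, the precursor of interleukin-1 beta, with 374 and 1066. The 5 IL-4 response genes were mostly lower, with 3 called lower and 1 higher. Retnla had 85 and 5 counts, Pdcd1lg2 2241 and 1520, Mrc1, the mannose receptor, 32115 and 23617, and Chil3 8404 and 10433. The study itself reported transcriptomes that changed alike in both genotypes with IL-4. It found no significant difference in Arg1, Mrc1 and Pdl2, another name of Pdcd1lg2. Of 5 other CXC ligands tested, 4 were called higher, of which Cxcl10 differed most, at 630 and 2556 counts. None of the 5 receptors and sheddases tested was called higher, and Cxcr4 was called lower, at 9678 and 6579 counts. Neutrophil genes also differed between these libraries. Their 12 genes summed to 728 CPM in WT and 956 in the library labelled cKO, a ratio of 1.31, and 6 of 11 tested were called higher. The summed read share of Cxcl1, Cxcl2 and Cxcl3 had a ratio of 4.19. What part the neutrophil transcripts have in it was not tested.

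**Figure D3:**
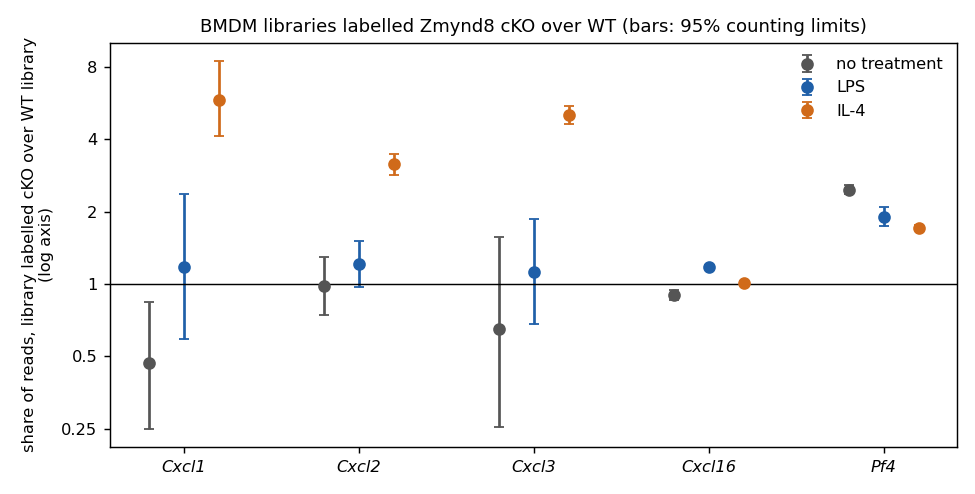
Ratio of the read share in the library labelled cKO to that in the WT library for each transcript and treatment, on a log axis, with 95% limits of counting error. The line at 1 marks equal shares. Cxcl1, Cxcl2 and Cxcl3 lie at 5.85, 3.14 and 5.05 after IL-4, and Pf4 lies above 1 under all 3 conditions.

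IL-4 was checked on 5 IL-4 response genes. All 5 were called higher after it in WT, and all 4 that could be tested in the libraries labelled cKO, with Arg1, the arginase gene, at 20 and 42592 counts in WT. The IL-4 libraries held higher levels of most of the 5 chemokines than the untreated ones. In the sample titles the running numbers of the IL-4 libraries lie apart from those of the other BMDM libraries. If they were handled as a separate set, IL-4 and that set cannot be told apart. In WT, 38.8% of 13090 genes were called higher and 21.8% lower, and in the libraries labelled cKO 42.4% of 12966 were called higher and 24.9% lower. In WT 4 of the 5 were called higher, and in the libraries labelled cKO all 5. Cxcl3 went from 16 to 597 counts in WT, 34.5-fold (21 to 60.7), and from 9 to 2773 in the libraries labelled cKO, 266-fold (140 to 583). Cxcl2 was 4.38-fold (3.58 to 5.39) higher in WT and 14.0-fold (11.4 to 17.4) in the libraries labelled cKO. Cxcl1 was not called in WT, at 42 and 39 counts, and was 10.7-fold (6.51 to 18.7) higher in the libraries labelled cKO, at 17 and 210.

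Cxcl16 was called higher with IL-4 in both genotypes, 7.65-fold (7.39 to 7.92) in WT and 8.55-fold (8.22 to 8.89) in the libraries labelled cKO. Pf4 was 3.26-fold (3.13 to 3.39) higher in WT and 2.26-fold (2.20 to 2.33) in the libraries labelled cKO. Its IL-4 fold was thus smaller in the libraries labelled cKO, where the untreated level was higher. Platelet and megakaryocyte genes moved with it, summing to 1.33 times the untreated level in WT and 1.79 times in the libraries labelled cKO. Of these genes 2 of 5 tested were called higher in WT, and 4 of 4 in the libraries labelled cKO, with none lower, and their part in Pf4 was not tested. Of the receptors and sheddases 4 were called higher and 1, Cxcr3, lower in each genotype, of 5 tested in WT and 6 in the libraries labelled cKO. Cxcr2, the receptor of CXCL1, CXCL2 and CXCL3 on neutrophils, went from 1 to 333 counts in WT and from 7 to 260 in the libraries labelled cKO. Adam17 went from 5472 to 22485 and Adam10 from 5155 to 17289 in WT. Beside this, 9 of 10 neutrophil genes tested were called higher with IL-4 in WT and 10 of 11 in the libraries labelled cKO. The exception was Mmp8, a neutrophil collagenase, from 2612 to 242 counts in WT and from 2630 to 267 in the libraries labelled cKO. Without it the other 11 genes summed to 38 and 719 CPM in WT and to 30.5 and 946 in the libraries labelled cKO. Of these sums Csf3r alone gave 35.6 and 330 CPM in WT and 28.1 and 424 in the libraries labelled cKO. Elane, the neutrophil elastase gene, went from 0 counts to 142 in WT and to 219 in the libraries labelled cKO. The part of the neutrophil genes in the chemokine levels was not tested.

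Dividing the fold in the libraries labelled cKO by that in WT puts the 2 genotypes side by side, with limits from counting error alone. For IL-4 this ratio was 12.5 (6.45 to 24.1) for Cxcl1, 7.73 (3.4 to 17.6) for Cxcl3 and 3.20 (2.41 to 4.25) for Cxcl2. It was 1.12 (1.06 to 1.18) for Cxcl16 and 0.695 (0.661 to 0.730) for Pf4. For LPS it was 2.52 (1.07 to 5.89) for Cxcl1, 1.30 (1.24 to 1.38) for Cxcl16 and 0.772 (0.696 to 0.856) for Pf4. The limits for Cxcl2 and Cxcl3 with LPS, 0.876 to 1.74 and 0.672 to 4.45, include 1.

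The 6 BMDM libraries were then fitted together, with genotype and treatment as terms of an edgeR quasi-likelihood model. It leaves 2 residual degrees of freedom, and a genotype difference that varies with treatment counts in it as spread. For genotype 0 of 13075 genes were called (0% in either direction), and 408 had an unadjusted p under 0.05, 3.12% of them. Pf4 was higher in the libraries labelled cKO in 3 of 3 treatments, with a log2 difference of 1.01 (0.57 to 1.44) and an unadjusted p of 0.00119, but an adjusted p of 0.764 in the edgeR test. DESeq2, run on the same design, called 40 genes, Pf4 among them with an adjusted p of 0.000921. For Cxcl1, Cxcl2 and Cxcl3 the log2 differences were 0.70 (-1.08 to 2.48), 0.69 (-0.14 to 1.52) and 1.22 (-0.14 to 2.58), and for Cxcl16 0.03 (-0.38 to 0.45), each with an adjusted p of 0.999 by edgeR and 1.00 by DESeq2.

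For the treatments the same edgeR fit made many calls. With LPS 14.7% of genes were called higher and 47.7% lower over both genotypes (1922 and 6242 genes, against 3283 and 3354 with TMM scaling), and 2 of the 5 chemokines were called. Cxcl16 had a log2 difference of 2.45 (1.92 to 2.98) and an adjusted p of 0.000402, and Pf4 one of -2.28 (-2.83 to -1.73) and an adjusted p of 0.000528. Cxcl2 and Cxcl3 were not called after LPS, with adjusted p of 0.227 and 0.163 by edgeR, while DESeq2 called both higher and TMM scaling called Cxcl2. With IL-4 13.5% of genes were called higher and 7.56% lower (1764 and 988 genes, against 1390 and 1328 with TMM scaling), and 4 of the 5 chemokines were called higher. Their log2 differences were 6.62 for Cxcl3, 3.02 for Cxcl2, 3.01 for Cxcl16 and 1.44 for Pf4, with adjusted p of 0.00260, 0.00658, 0.000793 and 0.00779 by edgeR. With 1 library left out at a time, the difference ranged from 5.30 to 7.78 for Cxcl3 and from 2.20 to 3.73 for Cxcl2. For Cxcl16 it then ranged from 2.88 to 3.15 and for Pf4 from 1.22 to 1.67. The call of Pf4 was lost without the WT IL-4 library and without genotype in the model. Cxcl1 was not called, at 1.66 (-0.43 to 3.76), but was called when either the untreated or the IL-4 library of WT was left out.

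Across the 6 BMDM libraries the 5 transcripts spanned different ranges. The highest CPM was 266 times the lowest for Cxcl3, 23.7 times for Pf4, 14.0 for Cxcl2, 11.1 for Cxcl1 and 8.55 for Cxcl16. Pf4 had 6 levels whose limits did not overlap, from 649 CPM in the IL-4 library labelled cKO down to 27.4 in WT after LPS. Cxcl1 was set apart in 1 library only, the IL-4 library labelled cKO at 8.04 CPM, while its other 5 levels, 0.723 to 1.60, overlapped with their neighbours. Within the summed reads of Cxcl1, Cxcl2 and Cxcl3, Cxcl2 held 66.9% in untreated WT and 75.6% in WT after LPS. After IL-4 Cxcl3 held the largest share, 50.1% in WT and 60.4% in the library labelled cKO.

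As a description over the 6 BMDM libraries, 3 of each genotype, levels were correlated as the log2 of CPM plus 1. Cxcl2 and Cxcl3 went together with a Pearson r of 0.99. Cxcl1 had r of 0.87 with Cxcl2 and 0.85 with Cxcl3, and Cxcl16 and Pf4 had r of 0.05. Among 9933 genes whose counts averaged 100 or more, those most like Cxcl3 were Icosl (0.993), Cxcl2 (0.993), Ccl17 (0.990), Vti1a (0.988) and Il20rb (0.987). The nearest to Cxcl2 were Icosl (0.995), Cxcl3 (0.993) and Acsl5 (0.989). For Cxcl16 they were Spata13 (0.999), Rnf19b (0.999) and Gm26584 (0.997), for Pf4 Bdh2 (0.995), Prpf40b (0.994) and Tmem237 (0.991), and for Cxcl1 Gm42031 (0.957), Zdhhc5 (0.899) and Mtdh (0.883).

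In the Raw264.7 tables each library's reads had been scaled by its own size factor, and whole reads could be recovered from the values. A gene was called when it had a mean value of at least 1 and differed by at least 1.2-fold after adding 1, with no test. The question there was whether WT Zmynd8 and the D/E-A mutant, put back into the knockout, left the chemokines at different levels. All 5 were lower in the library labelled D/E-A. Over 12771 genes, 36.7% were called higher and 35.9% lower, and the table holds only genes with at least 21 reads in the library labelled WT Zmynd8. Cxcl1 had 536 reads in the library labelled WT Zmynd8 and 139 in that labelled D/E-A, a ratio of deposited values of 0.272 (0.224 to 0.328). Cxcl3 had 732 and 300 reads, a ratio of 0.429 (0.374 to 0.492). Cxcl2 had 5828 and 2638, a ratio of 0.474 (0.453 to 0.497). Pf4 had 7438 and 3061, a ratio of 0.431 (0.413 to 0.450), and Cxcl16 had 9429 and 7390, a ratio of 0.821 (0.796 to 0.847).

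Genes of other cells moved with these values. The neutrophil genes, of which 11 of 12 were called lower, summed to 0.461 times their level in the library labelled WT Zmynd8, and the summed Cxcl1, Cxcl2 and Cxcl3 reads to 0.445 times. Platelet and megakaryocyte genes summed to 0.619 times and macrophage genes to 1.69 times. S100a8, a granulocyte gene, had 49845 reads in the library labelled WT Zmynd8 and 17370 in that labelled D/E-A. Their part in the chemokine values was not tested. The interferon-induced ligands went the other way, with Cxcl9 at 1339 and 7114 reads and Cxcl10 at 47011 and 68856. Of 7 receptors and sheddases tested, 3 were called higher and 3 lower. Adam17 had 2228 and 4402 reads and Adam10 939 and 1457, while Cxcr2 had 435 and 279 and Cxcr4 945 and 673.

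The library labelled Zmynd8 KO gave smaller differences from that labelled WT Zmynd8. Over 21302 genes, 33.8% were called higher and 36.5% lower, and 3 of the 5 chemokines were called lower. Cxcl1 had 371 reads, a ratio of 0.637 (0.556 to 0.728), Cxcl2 had 4382, a ratio of 0.691 (0.665 to 0.719), and Cxcl3 had 608, a ratio of 0.764 (0.685 to 0.852). Cxcl16, with 9995 reads, and Pf4, with 7506, had ratios of 0.975 (0.948 to 1.00) and 0.928 (0.899 to 0.958) and were not called. The summed neutrophil genes had a ratio of 0.691, the summed neutrophil attractants 0.661 and the macrophage genes 1.35. The part of these genes was not tested here either. Of 7 other CXC ligands tested, 6 were called higher, among them Cxcl9 at 1339 and 2921 reads. Both comparisons share the library labelled WT Zmynd8, so its reads enter both sets of ratios.

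**Figure D4:**
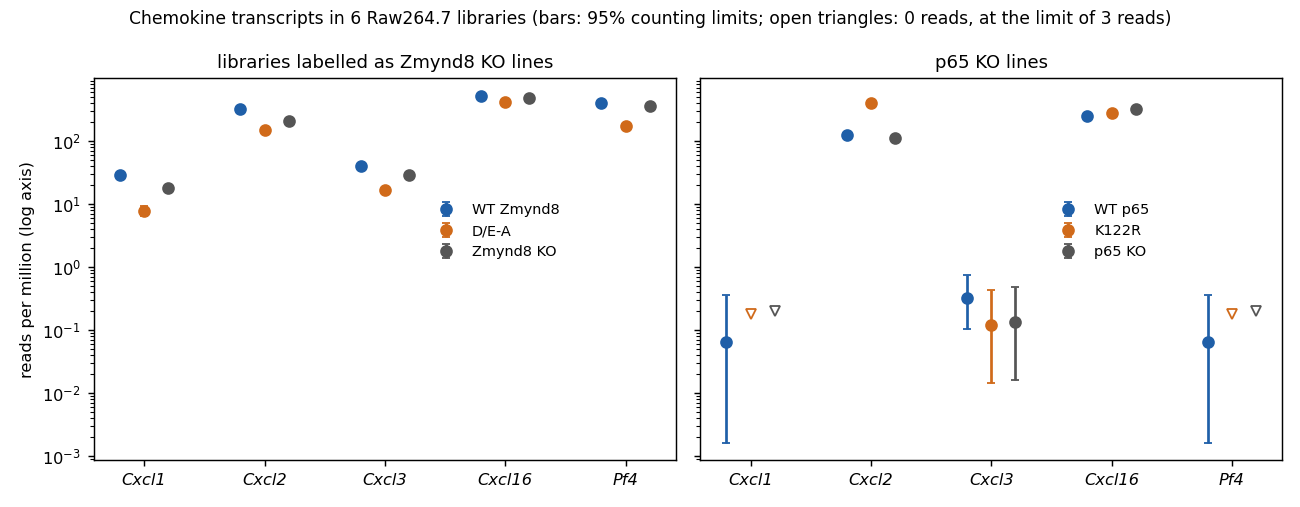
Level of each chemokine transcript in the 6 libraries labelled Raw264.7, in CPM on a log axis, with those of the Zmynd8 lines in the left panel and the p65 lines in the right. Bars are 95% limits of counting error, and open triangles stand at the limit of 3 reads for libraries with 0 reads. Cxcl1 and Pf4 are at 0 or 1 read in the p65 lines, while Cxcl2 stands at 395 with K122R.

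In the LPS-treated p65 lines only Cxcl2 and Cxcl16 were well expressed. Cxcl1 and Pf4 had 1 read each with WT p65 and 0 with K122R and in the p65 KO, and Cxcl3 had 5, 2 and 2. A count of 0 allows up to 3 reads, or 0.180 CPM with K122R and 0.198 CPM in the p65 KO. Cxcl1 and Pf4 fell under the filter on low values, so 3 of the 5 chemokines could be compared. Cxcl3 passed the fold rule as lower in both comparisons, yet its limits, 0.0396 to 2.54 for K122R, span a wide range either side of 1.

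The comparison of K122R with WT p65 addresses a lysine of p65 that the study found acetylated. Over 19670 genes, 30.8% were called higher and 32.5% lower in the K122R library. Cxcl2 had 1947 reads with WT p65 and 6575 with K122R, 124 and 395 CPM, a ratio of 3.51 (3.34 to 3.69). Cxcl16 had 3919 and 4648 reads, a ratio of 1.23 (1.18 to 1.29), which falls under the 1.2-fold limit when reads are divided by library totals. Rela, at 1601 and 5850 reads, differed by a like amount as Cxcl2, and its part in the result was not tested. Among the LPS response genes 5 of 7 were called higher, with Nos2 at 3414 and 9701 reads, and 1 lower, Ptgs2 at 60996 and 41237. Neutrophil genes summed to 8.23 and 27.8 CPM, nearly all of it Csf3r.

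In the p65 KO, 26.3% of 19879 genes were called higher and 25.7% lower against WT p65. Cxcl2 had 1947 and 1689 reads, a ratio of 0.898 (0.840 to 0.959), and was not called. Cxcl16 had 3919 and 4826 reads and was called higher, with a ratio of 1.27 (1.22 to 1.33). Of the LPS response genes 3 of 7 were called lower and 0 higher, and no exact test was part of this rule. Both p65 comparisons share the WT p65 library.

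**Figure D5:**
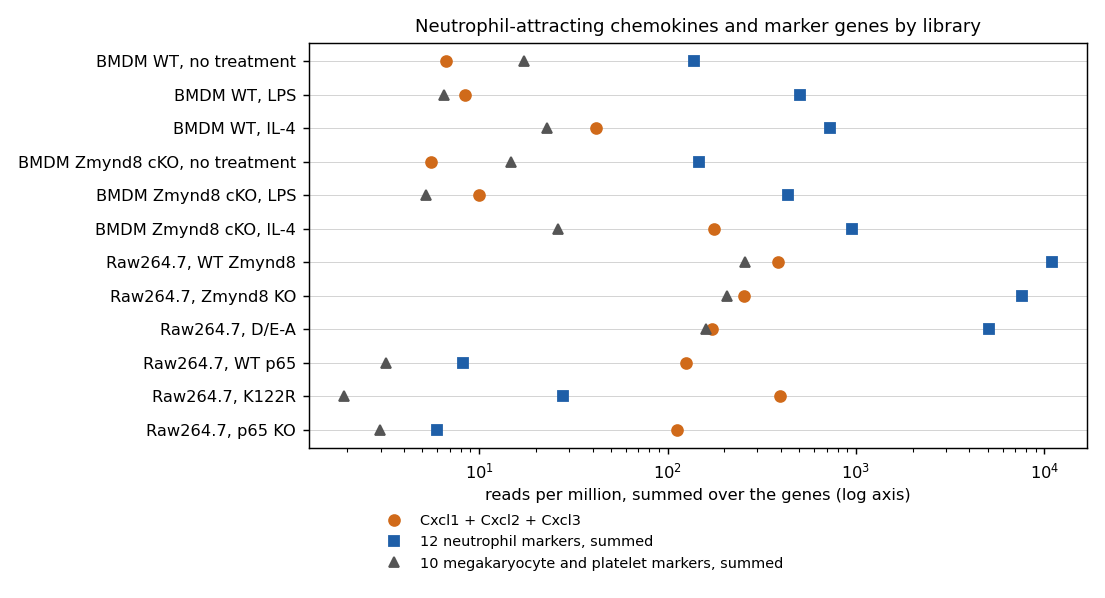
Summed CPM of 12 neutrophil genes (squares) and 10 platelet and megakaryocyte genes (triangles) beside the summed Cxcl1, Cxcl2 and Cxcl3 (circles) in each of the 12 libraries, named by their labels, on a log axis. The neutrophil genes reach 10982 in the library labelled WT Zmynd8 and lie between 138 and 956 in the BMDM libraries and between 5.95 and 27.8 in the p65 lines. After LPS, Csf3r gives 493 of the 507 CPM in WT BMDMs and 415 of the 435 in the library labelled cKO.

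The neutrophil attractants were also set side by side over all libraries. Their summed reads were 6.68 CPM in untreated WT BMDMs and 8.39 after LPS, against 125 in the LPS-treated line with WT p65 and 386 in the library labelled WT Zmynd8. These tables were normalised separately, so the values are given without a test. The makeup also differed. Cxcl2 alone gave 124 of the 125 CPM with WT p65, whereas Cxcl3 gave 106 of 176 CPM in the IL-4 BMDM library labelled cKO. Cxcl16 ranged between 250 and 513 CPM over the 6 libraries labelled Raw264.7, of which the 3 Zmynd8-line libraries are of uncertain identity. Pf4 ranged from 0 reads in the K122R and p65 KO libraries to 404 CPM in that labelled WT Zmynd8, where platelet and megakaryocyte genes summed to 258 CPM.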

How the data were processed

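The RNA-seq methods, which describe BMDMs, name alignment to mm10 with TopHat. For the BMDM libraries the authors deposited estimated counts and TPM per gene, and the paper does not say how these were made. Those estimated counts were rounded here. For the Raw264.7 libraries the authors deposited a signal, read counts divided by a size factor set separately in each table, and the methods name no aligner for them separately. Reads were recovered from it, with 99.9916% to 100% of values whole within 0.02 of a read. Rows that name no gene (431, 431 and 2 per BMDM table) were left out of totals and tests, and 2 further per-sample columns stayed unused, as did those of the authors' own fold changes and p-values.

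CPM were formed from library totals. BMDM pairs were tested with a two-sided exact binomial test, adjusted by Benjamini-Hochberg over every gene averaging 10 or more counts. Simulated pairs held counting error alone, so they checked the code and not the error between animals. Genotype and treatment were also fitted together by edgeR's quasi-likelihood test over the 6 BMDM libraries, with library totals, genes averaging 10 or more counts, and calls at an adjusted p under 0.05 and a fold of 1.2. This fit was chosen after the data were seen. On simulated counts with its fitted variation it called 30 of 50 genes changed 2-fold by genotype, 50 of 50 changed 4-fold and 8 of 12875 unchanged ones. Raw264.7 pairs used the fold rule alone. Analyses used Python 3.11.15, SciPy 1.17.1, R 4.3.3, edgeR 4.0.16 and DESeq2 1.42.0. Alternatives were other scalings, pseudocounts, filters, fold limits and tests. Named genes of the lists were called ones averaging 100 or more counts, at most 4 per list and comparison, and for each chemokine up to 5 most alike genes, besides Zmynd8, Rela, Lyz2, Xist and the genes singled out after their values were seen (S100a8, S100a9, Ngp, Elane, Mpo, Csf3r, Mmp8, Treml1, Clec1b, Itga2b, Gp9, Gp1bb, Rn18s-rs5, Cxcl11, Cxcr2, Cxcr3, Cxcr6, Retnla). The chemokines and lists were chosen with earlier results of these data known. The other 35 samples of the series were not analysed here.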

Additional observations from a re-analysis of the deposited data

Results flagged for a closer look

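Cxcl1 stood out because its difference between the libraries labelled cKO and WT had opposite directions under different treatments. Its log2 difference on the CPM + 1 scale was -0.57 without treatment, called lower at 17 against 42 counts, and 1.93 after IL-4, called higher at 210 against 39. After LPS it was 0.11, at 20 against 18 counts, and was not called. With 1 library per condition the difference between treatments was not tested.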

How the results depend on the processing

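Each group holds 1 library, so no replicate number pairs libraries, and libraries were paired by treatment only in the joint fit, which was added with its alternatives after the data were seen. Direction and call of single chemokines were the same in 453 of the recomputed values, lost the call in 33, gained it in 18 and reversed in 11. Of the reversals, Cxcl2 without treatment became 0.0017 with TMM scaling and 0.0036 with TPM, and Cxcl16 after IL-4 became -0.048 with TMM. Asking for a fold of 2 left 1 chemokine called of 2 for cKO against WT without treatment, 0 of 1 after LPS, 3 of 4 after IL-4, where Pf4 lost its call, 2 of 5 for LPS in WT, 2 of 4 for LPS in cKO, 4 of 5 for D/E-A, where Cxcl16 lost its call, 0 of 3 for Zmynd8 KO, 1 of 3 for K122R and 0 of 2 for p65 KO. An edgeR exact test with an assumed variation of 0.2 called 0 without treatment, 0 for cKO against WT after LPS, 3 after IL-4, again without Pf4, and 2 for LPS in WT, and over all genes 273 and 37 where the binomial test called 5981 and 3246. TPM with the fold rule alone called 4 without treatment and 3 after LPS. Without the filter on low values 5 were called for K122R and 4 for p65 KO. For p65 KO a mean value of at least 5 left 1, and so did adding the exact binomial test on reads, which over all genes left 2706 of 10325 calls there, 5353 of 12453 for K122R and 7035 of 14978 for Zmynd8 KO. In the joint fit DESeq2 called 1 chemokine for genotype and 4 for LPS, where Cxcl1 reversed to 0.010, and edgeR without the filter on low counts called 31 genes for genotype, as edgeR did 21 when 1 of the LPS libraries was left out and 5 or 6 when 1 of the IL-4 libraries was. With each library left out in turn it called 0 chemokines for genotype, 2 to 3 for LPS and 4 to 5 for IL-4. The genotype difference then ranged from -0.45 to 1.62 for Cxcl1, -0.14 to 1.75 for Cxcl3 and -0.068 to 0.12 for Cxcl16, the values below 0 of Cxcl1 and Cxcl3 coming when 1 of the IL-4 libraries was left out and those of Cxcl16 when 1 of the LPS libraries was, and from 0.85 to 1.12 for Pf4. For Cxcl2 it was 0.13 when 1 of the IL-4 libraries was left out and 1.04 when 1 of the untreated libraries was. The LPS difference of Cxcl1 ranged from -1.84 to 0.87, above 0 only without the untreated WT library, and Cxcl3 was called for LPS when the LPS library labelled cKO or 1 of the IL-4 libraries was left out. A treatment left with 1 library is assumed there to vary like the others. The causes were not tested, beyond the stricter rules themselves.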
